A study of Mus musculus with 12 samples.

Results

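The genes described here are the mouse matrix metalloproteases (Mmp), the ADAM and ADAMTS proteases, the ADAMTS-like proteins, the tissue inhibitors of metalloproteases (Timp) and the astacin proteases Bmp1, Tll1 and Tll2. They were chosen by symbol alone and make up 87 of the 23226 features with a single gene name in the authors' deposited table. The RNA came from 3 mouse lines of small cell lung cancer, a neuroendocrine tumor, all of genotype Trp53-/-;Rb1-/- and cultured as free-floating spheres. Of these, 16T and KP1 have the label Nfib high and received shLuc, a control shRNA, or sh2, which targets Nfib. The Nfib low line KP22 received Nfib cDNA or its empty vector. There were 12 libraries in 6 groups of 2.

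The product of Nfib is nuclear factor I B, a DNA-binding regulator of transcription. Each comparison asks which of these genes differed where Nfib was lowered (16T and KP1) or raised (KP22). Both knockdowns used 1 shRNA and the cDNA was tested in 1 line, so that an effect of that shRNA sequence or of that line cannot be told apart from one of Nfib. Whether the duplicates were separate cultures is not stated, and the p-values therefore reflect the spread between these libraries only, which may be technical. The authors' deposited table holds results of comparisons. It gives 1 mean normalized count per gene over all libraries and, for each line, a log2 fold change with its standard error (SE) and adjusted p. Values per library were not analysed here, so whether the libraries of a group overlap is not known and the depth is unknown. All levels, log2 fold changes ± SE and adjusted p-values below are those of the authors' deposited table, unless a difference between comparisons is named. No SE exceeded 0.521, also where the mean was near 0, so the log2 fold changes of low genes look drawn towards 0 and the folds, percentages and differences computed from them may be too small; the sources do not state whether this was done. A gene is said to have risen, fallen or changed, and is counted as called, where the authors' adjusted p was below 0.05. The headers do not state the direction of a comparison, and it was read from Nfib itself, which stood at -1.08 ± 0.035 in 16T, -1.32 ± 0.035 in KP1 and 1.80 ± 0.036 in KP22.

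Matrix metalloproteases are zinc-dependent enzymes that cut collagens, laminins and other matrix proteins. Most are secreted as inactive precursors, and a membrane-type group stays at the cell surface. ADAM proteases are membrane-bound and release the outer parts of receptors, adhesion molecules and growth factors, a process called shedding. ADAMTS proteases are secreted, and several of them cut the large proteoglycans aggrecan and versican. ADAMTS-like proteins share the non-catalytic modules but lack the protease domain. Bmp1 and the tolloid-like enzymes trim procollagens and release bone morphogenetic proteins from their antagonist chordin. TIMPs bind the active site of matrix metalloproteases and hold these enzymes back. Loss of the balance between proteases and inhibitors is a classic theme of tumor invasion.

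Of the 42 members tested in all 3 comparisons, 8 were called in each with both knockdowns moving one way and the Nfib cDNA the other. Of all 14504 genes so tested, 10.1% were called in this way. Adam10, Adamts5, Adamts18, Mmp17 and Timp2 rose in both knockdowns and fell with the cDNA, and Bmp1, Mmp15 and Tll1 fell in both knockdowns and rose with the cDNA. Start regions were available for 5 of these 8 genes. They are shown because a factor of the nuclear factor I family recognises TTGGC and its complement GCCAA, placed as a pair in a full site. Each window is 300 bases long, from 250 before to 50 after the transcription start, taken 5′ to 3′ on the gene's strand from RefSeq on GRCm38.p6. Capitals mark each TTGGC or GCCAA. The windows are chr9:70678732-70679031 (plus strand) for Adam10, chr8:113848790-113849089 (minus strand) for Adamts18 and chr8:95352046-95352345 (plus strand) for Mmp15. Those of Timp2 and Tll1 are chr11:118355362-118355661 and chr8:64205959-64206258, both on the minus strand.
Adam10: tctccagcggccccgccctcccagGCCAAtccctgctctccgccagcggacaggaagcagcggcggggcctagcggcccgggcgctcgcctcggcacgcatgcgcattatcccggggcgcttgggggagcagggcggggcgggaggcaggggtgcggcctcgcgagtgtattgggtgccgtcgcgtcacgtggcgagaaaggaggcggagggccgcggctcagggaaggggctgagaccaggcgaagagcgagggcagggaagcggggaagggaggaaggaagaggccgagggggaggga
Adamts18: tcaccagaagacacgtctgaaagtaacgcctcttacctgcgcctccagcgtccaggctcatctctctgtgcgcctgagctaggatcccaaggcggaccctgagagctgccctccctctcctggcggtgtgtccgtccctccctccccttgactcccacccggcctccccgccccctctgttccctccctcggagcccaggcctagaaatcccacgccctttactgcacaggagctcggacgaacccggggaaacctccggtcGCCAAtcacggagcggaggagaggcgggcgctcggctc
Mmp15: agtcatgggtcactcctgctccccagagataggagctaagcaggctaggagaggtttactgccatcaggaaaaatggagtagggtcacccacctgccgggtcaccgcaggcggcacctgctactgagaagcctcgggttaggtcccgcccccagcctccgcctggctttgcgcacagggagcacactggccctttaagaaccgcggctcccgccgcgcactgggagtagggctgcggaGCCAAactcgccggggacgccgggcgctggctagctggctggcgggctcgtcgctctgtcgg
Timp2: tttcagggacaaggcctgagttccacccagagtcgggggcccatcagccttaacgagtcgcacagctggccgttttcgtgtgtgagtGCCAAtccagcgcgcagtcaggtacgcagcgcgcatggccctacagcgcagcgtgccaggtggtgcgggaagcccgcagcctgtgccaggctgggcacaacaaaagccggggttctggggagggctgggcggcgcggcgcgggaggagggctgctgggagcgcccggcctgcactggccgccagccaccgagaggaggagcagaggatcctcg
Tll1: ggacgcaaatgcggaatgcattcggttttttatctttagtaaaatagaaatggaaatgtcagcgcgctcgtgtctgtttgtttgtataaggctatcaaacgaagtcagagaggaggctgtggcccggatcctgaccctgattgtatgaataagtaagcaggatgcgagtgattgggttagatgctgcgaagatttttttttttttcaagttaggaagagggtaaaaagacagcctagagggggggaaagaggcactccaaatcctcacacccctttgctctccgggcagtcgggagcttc
Of these 5 windows, 4 held 1 half-site each. Counted from the start site, its first base stood at -226 in Adam10, 12 in Adamts18, -12 in Mmp15 and -163 in Timp2, and the Tll1 window held none. A half-site of 5 letters is common, and 46.7% of all 32851 RefSeq start windows of the same length held one on either strand. Start windows were available for 55 of the 87 members, with 60 windows, of which 26 (43.3%) held a half-site. Among members called in 1 or more comparisons the count was 12 of 25 windows (48.0%). The full site, TTGGC and GCCAA with 5 bases between them, was in none of the members' windows and in 12 of all windows (0.0365%). These are matches of letters in a short window and say nothing of binding.

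Levels in these cells differed widely between families. The mean normalized count was listed at 0 for 21 of the 87 members, was above 0 and under 10 for 22, lay between 10 and 100 for 17 and between 100 and 1000 for 17, and was at least 1000 for 10. Compared per kb of the exons counted under the gene's name, Adam10 was the highest at 1595 normalized counts per kb, followed by Mmp24 at 1355 and Bmp1 at 1067. Adam17 (896), Adam15 (864), Adam9 (762) and Adamts10 (705) came next. The highest inhibitors were Timp2 at 587 and Timp1 at 415 per kb. The order carries no error, since no spread between libraries was available for these means. Whether the authors' normalization already allowed for gene length was not examined here, and the order may depend on that. Secreted matrix metalloproteases were mostly at the bottom. Mmp1a, Mmp1b, Mmp3, Mmp7, Mmp8, Mmp10, Mmp12, Mmp20 and Mmp27 were listed at 0. All of these lie in a cluster of 10 Mmp genes on chr9:7272514-7699416 (mm10), whose remaining gene, the collagenase Mmp13, had a mean of 4.09. The ADAM genes listed at 0 were Adam2, Adam6a, Adam6b, Adam20, Adam24, Adam26a, Adam26b, Adam29, Adam34 and Adam39, several of which are known for expression in the testis. Mmp25 and Adamts3 were the other members at 0. A gene listed at 0 here may still be transcribed below what the libraries could count.

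**Figure D1:**
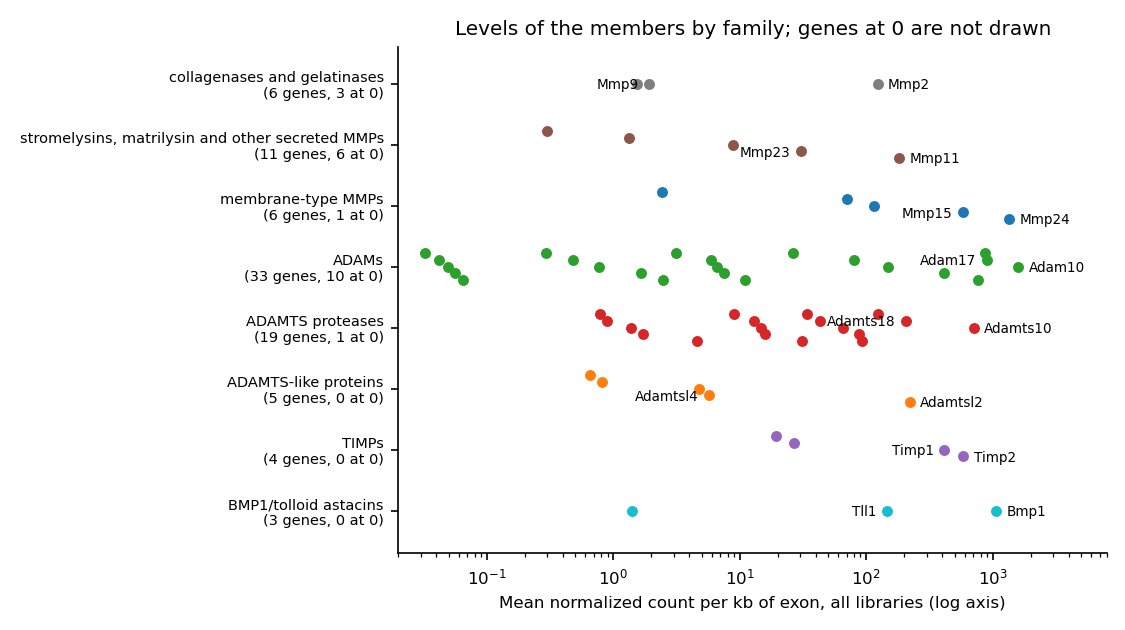
Mean normalized count per kb of exon over all libraries (log axis) of each member, one row per family, with the highest pair of genes of each family named; members listed at 0 are not drawn and are counted beside the family name. ADAMs reach 1595 per kb with Adam10, while of the collagenases and gelatinases only Mmp2 stands above 10.

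The astacin proteases held the largest gain. Tll1, which trims procollagens and cuts chordin (mm10 chr8:64014770-64205993, mean 719), fell by 1.98 ± 0.144 on the log2 scale in 16T with the Nfib shRNA, to 25.3% of the control, and by 1.35 ± 0.142 in KP1, to 39.2%. In KP22 with Nfib cDNA it rose by 4.17 ± 0.235, to 18.01-fold its level with the empty vector. The adjusted p-values were 2.04e-41, 7.13e-20 and 1.42e-68. Bmp1, the procollagen C-proteinase (chr14:70474555-70520260, mean 3686), moved the same ways with smaller sizes: it fell by 1.30 ± 0.061 in 16T and by 0.72 ± 0.059 in KP1 and rose by 0.32 ± 0.059 in KP22. Further exons of Bmp1 are counted in a separate feature (mean 583), where the values were -1.31, -0.54 and 0.34. Tll2, the third of the family, was near the detection floor with a mean of 4.74; it had no adjusted p in the knockdowns (-0.44 ± 0.454 and -0.90 ± 0.468) and rose by 1.504 ± 0.422 in KP22 (adjusted p = 0.00163). All 3 astacins thus rose with the cDNA, and both of those tested in the knockdowns fell in each line. Of all tested genes, 19.5% rose in KP22, 25.3% fell in 16T and 19.6% fell in KP1. In the authors' test against a log2 change of 0.5, Tll2 was not called in KP22 (adjusted p = 0.217).

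Among the membrane-type metalloproteases, 4 of 6 had enough signal to be tested in all lines. Mmp15 (mean 2501), which cuts matrix proteins at the cell surface, fell by 0.9996 ± 0.076 in 16T, to 50.01% of the control, fell by 0.26 ± 0.074 in KP1 and rose by 0.61 ± 0.072 in KP22. Mmp17, which is held to the membrane by a glycolipid anchor (mean 401), went the opposite way: it rose by 0.57 ± 0.166 in 16T and 0.49 ± 0.161 in KP1 and fell by 1.004 ± 0.178 in KP22. Mmp16 (mean 323), an activator of gelatinase A, fell by 0.51 ± 0.187 in KP1 and rose by 1.51 ± 0.321 in KP22, to 2.85-fold, while its value in 16T was 0.41 ± 0.182 (adjusted p = 0.058). Mmp24 (mean 2233), known from the nervous system, fell by 0.70 ± 0.081 in KP1 and also fell by 0.76 ± 0.1004 in KP22, with -0.19 ± 0.082 in 16T (adjusted p = 0.0531). More of the Mmp24 signal lies in a feature that joins its exons with those of BC029722 (mean 3987: -0.22, -0.55 and -0.89), which cannot be split between the genes. Mmp14, the best known membrane-type enzyme and the activator of gelatinase A, had a mean of 6.31 and was not called.

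Few secreted metalloproteases gave a signal in the feature of their own name. For Mmp19 that feature had a mean of 9.67, and further Mmp19 exons are counted together with Tmem198b. The joined feature (mean 260: 0.05, -0.02 and 0.07) cannot be split between the genes. Gelatinase A, Mmp2 (mean 374), was the only collagenase or gelatinase with a mean of at least 10, and its values of -0.07 ± 0.177 in 16T, -0.25 ± 0.156 in KP1 and -0.30 ± 0.228 in KP22 were not called. Gelatinase B, Mmp9, had a mean of 6.12 and -0.26 ± 0.479 in KP22, where it was tested. Mmp11, or stromelysin 3 by its older name, which is released in active form (mean 407), rose by 1.23 ± 0.159 in 16T (adjusted p = 1.45e-13), to 2.35-fold, and stood at 0.06 ± 0.157 in KP1 and 0.19 ± 0.177 in KP22. Mmp23 (mean 43.8) fell by 1.05 ± 0.408 in 16T (adjusted p = 0.0266), with 0.73 ± 0.407 in KP1 and 0.49 ± 0.410 in KP22, neither called.

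**Figure D2:**
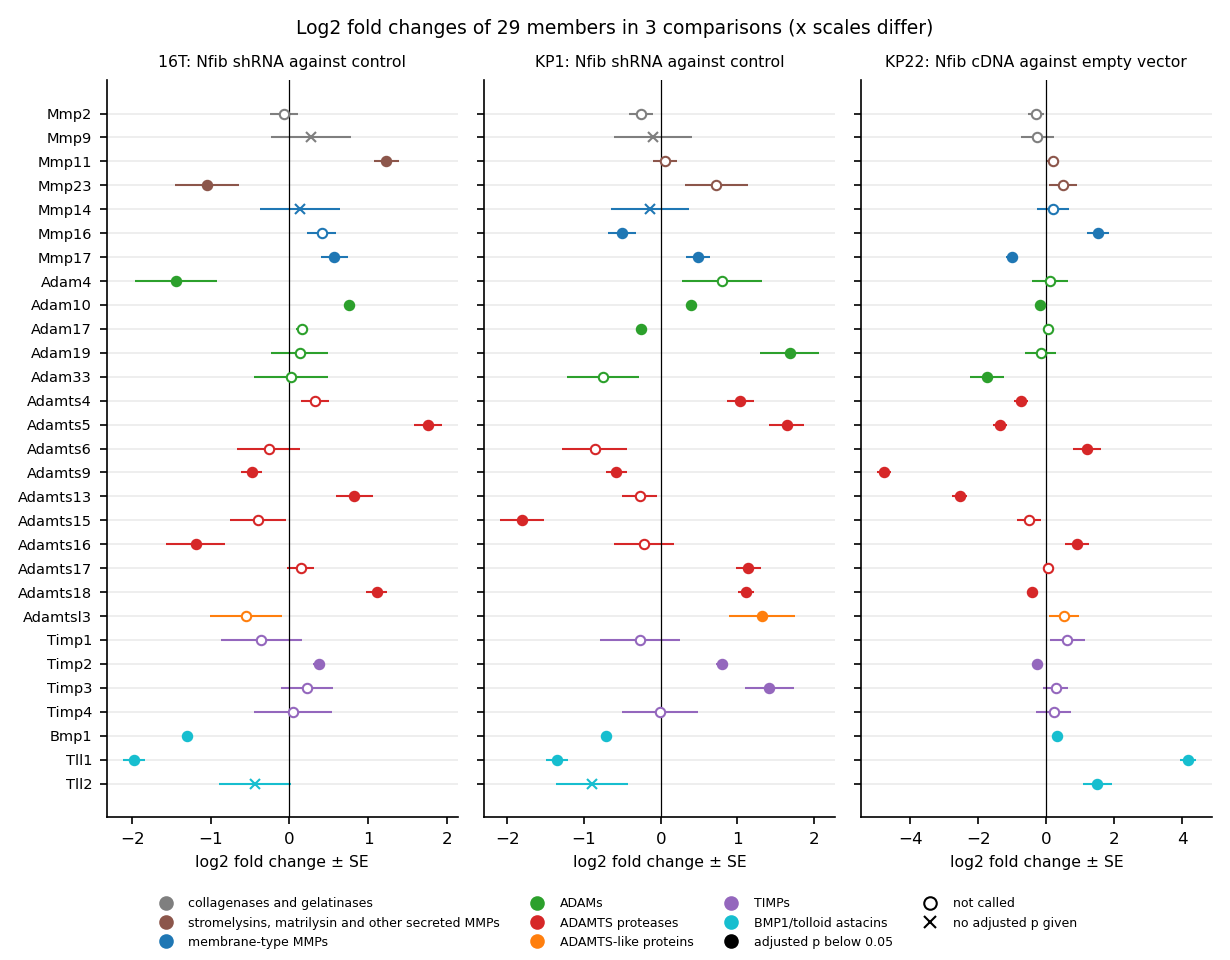
Log2 fold change with its SE (bars) of 29 members in 16T and KP1 (Nfib shRNA against control) and in KP22 (Nfib cDNA against empty vector), coloured by family; filled points have an authors' adjusted p below 0.05, open points do not, crosses had none given, and the x scale of each panel is its own. Tll1 goes from -1.98 in 16T to 4.17 in KP22, and Adamts9 reaches -4.78 in KP22.

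Of the 33 ADAMs, 12 were tested in both knockdowns. Adam10, the main sheddase of Notch receptors and many adhesion molecules (mean 7322), rose by 0.75 ± 0.046 in 16T, to 1.69-fold, rose by 0.40 ± 0.046 in KP1 and fell by 0.19 ± 0.047 in KP22. Adam17, which releases tumor necrosis factor and several ligands of the epidermal growth factor receptor (mean 2140), fell by 0.25 ± 0.072 in KP1 (adjusted p = 0.00221) and was not called in 16T (0.15 ± 0.073) or KP22 (0.06 ± 0.074). Some Adam17 exons are counted together with Iah1 (mean 1186: -0.10, -0.22 and 0.15). At lower levels, Adam19 (mean 48.1) rose by 1.68 ± 0.382 in KP1, to 3.20-fold, Adam33 (mean 20.9) fell by 1.74 ± 0.503 in KP22, to 29.96% of the control, and Adam4 (mean 61.3) fell by 1.45 ± 0.521 in 16T. Each of these was called in that line alone. The SE of Adam4 is at the largest SE in the table, 0.521, as is that of Timp1, although other genes of like mean had smaller ones. Further ADAMs are given here after their values were seen. Adam9 (mean 2903) fell by 0.91 ± 0.073 in KP22, to 53.2%, with -0.05 ± 0.073 and -0.06 ± 0.071 in the knockdowns. Adam15 (mean 2583) fell by 0.25 ± 0.070 in 16T and 0.54 ± 0.071 in KP1, and 24.6% of its exon bases are overlapped by exons of 4731419I09Rik on the other strand. Adam22 (mean 3771), a receptor at synapses without protease activity, rose by 0.38 ± 0.058 in KP22. Adam12 (-0.88 ± 0.334 in 16T) and Adam8 (0.50 ± 0.201 in KP22) were the other called ADAMs.

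The ADAMTS family had 14 members tested in both knockdowns and 18 in KP22. Adamts9 (chr6:92772699-92901441, mean 746), which cuts versican and aggrecan, showed the largest loss of any member: it fell by 4.78 ± 0.204 in KP22 (adjusted p = 2.45e-119), to 3.64% of its level with the empty vector, or 27.5-fold lower. In the knockdowns it fell as well, by 0.48 ± 0.138 in 16T and by 0.58 ± 0.133 in KP1. On the strand opposite to Adamts9, exons of other genes cover 9.77% of its exon bases. Adamts5, the leading aggrecanase in cartilage (chr16:85858157-85901125, mean 346), rose by 1.76 ± 0.180 in 16T, to 3.39-fold, and by 1.64 ± 0.224 in KP1, to 3.12-fold, and fell by 1.36 ± 0.198 in KP22, to 39.0%. Adamts18 (mean 993) rose by 1.11 ± 0.134 in 16T and by 1.11 ± 0.103 in KP1 and fell by 0.41 ± 0.119 in KP22. Adamts13, the protease of von Willebrand factor (mean 303), rose by 0.82 ± 0.233 in 16T and fell by 2.55 ± 0.221 in KP22, to 17.1%, with -0.28 ± 0.225 in KP1. A separate feature with further Adamts13 exons and little signal (mean 15.3) stood at -0.24 ± 0.509 in 16T, -0.53 ± 0.506 in KP1 and -0.33 ± 0.513 in KP22, where it was not called.

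The remaining ADAMTS members with a large change were each called in 1 or 2 lines. Adamts4, a further aggrecanase (mean 323), rose by 1.04 ± 0.172 in KP1 and fell by 0.74 ± 0.214 in KP22, with 0.33 ± 0.181 in 16T. Adamts17 (mean 559) rose by 1.14 ± 0.165 and Adamts15 (mean 94.3) fell by 1.81 ± 0.288, both in KP1 alone. Adamts16 (mean 73.1) fell by 1.20 ± 0.379 in 16T and rose by 0.90 ± 0.348 in KP22. Adamts6 (mean 62.9) rose by 1.21 ± 0.416 in KP22. The others called, named after their values were seen, were Adamts1, Adamts10 and Adamts20. Adamts1 (mean 166), also a versican protease, rose by 0.90 ± 0.226 in 16T but fell by 0.60 ± 0.239 in KP1 and by 0.64 ± 0.253 in KP22. Adamts10 (mean 2707), linked to fibrillin microfibrils, fell by 0.30 ± 0.068 in 16T and by 0.75 ± 0.098 in KP22. Adamts20 (mean 180) fell by 0.60 ± 0.229 in 16T. Aggrecanases and versican proteases therefore did not share a direction: in KP1, Adamts4 and Adamts5 rose, and Adamts1, Adamts9 and Adamts15 fell.

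Of the 5 ADAMTS-like genes, 3 were tested in the knockdowns. In 16T 1 was called and in KP1 2, where 45.3% and 37.2% of all tested genes were called. Adamtsl3 (mean 34.9) rose by 1.32 ± 0.429 in KP1 (adjusted p = 0.00845), with -0.55 ± 0.457 in 16T. Adamtsl2 (mean 715), which binds matrix proteins near fibrillin and was added after its values were seen, fell by 0.68 ± 0.129 in 16T and rose by 0.33 ± 0.124 in KP1. Of the 5 tested in KP22, 0 were called by the authors' test (DESeq2 per the submitters' processing notes) and 0 had an unadjusted p below 0.05. Of all genes tested in KP22, 38.4% were called.

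All 4 inhibitors were measured. Timp2 (mean 2125), which both blocks gelatinase A and takes part in its activation, rose by 0.37 ± 0.078 in 16T and by 0.80 ± 0.076 in KP1 and fell by 0.27 ± 0.072 in KP22. Timp3, which stays bound to the matrix and also inhibits ADAMs (mean 90.3), rose by 1.41 ± 0.319 in KP1, to 2.67-fold, and was at 0.22 ± 0.326 in 16T and 0.28 ± 0.365 in KP22. Exons of Syn3 on the opposite strand overlap 37% of the Timp3 exon bases, the sources do not say that strand was used in counting, and Syn3 itself stood at -0.40 ± 0.112, 0.58 ± 0.114 and -0.25 ± 0.115. Timp1 (mean 315) was not called at -0.36 ± 0.521, -0.27 ± 0.521 and 0.62 ± 0.521. Timp4 (mean 37.7) was not called at 0.04 ± 0.495, -0.01 ± 0.493 and 0.22 ± 0.504.

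Counted over the members, 20 of the 42 tested in 16T were called, 8 higher and 12 lower, where 45.3% of all tested genes were called, 20.0% higher and 25.3% lower. In KP1 the count was 21 of 42, with 11 higher and 10 lower, against 37.2% of all genes, 17.6% higher and 19.6% lower. In KP22 it was 22 of 59, with 9 higher and 13 lower, against 38.4% of all genes, 19.5% higher and 18.8% lower. The share of members called was thus near that of all genes in 16T (47.6%) and KP22 (37.3%) and above it in KP1 (50%). Only members with enough signal were tested, and among the 27 with a mean of at least 100 the calls were 16 in 16T, 17 in KP1 and 18 in KP22, where 50.7%, 41.1% and 50.2% of all such genes were called. Called changes of 1 log2 unit or more numbered 8 in 16T, 9 in KP1 and 9 in KP22, and the share of all tested genes was 6.36%, 5.96% and 8.07%. Called members had a median size of change of 0.89, 0.72 and 0.83 in 16T, KP1 and KP22, and called genes in general 0.40, 0.38 and 0.45. With a mean of at least 100, the sizes were 0.79, 0.60 and 0.75 for called members and 0.38, 0.35 and 0.42 for called genes. Called changes of 1 or more were then 5, 5 and 6 of 27 members, and 636, 551 and 938 of 12287 genes. The median log2 fold change of the tested members was -0.21, -0.11 and 0.09, and that of all tested genes -0.05, -0.02 and 0.04.

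In all 3 comparisons 10 of the 42 members were called, against 15.1% of all genes. The 8 members with opposite directions under knockdown and cDNA compare with 10.1% of all genes. Expressed per gene called in all 3, these were 8 of 10 members and 1464 of 2193 genes (66.8%). The other pair were Adamts9, which fell in every line, and Adamts1, which rose in 16T and fell in KP1 and KP22. Of the 12 members called in both knockdowns, 10 moved the same way (83.3%), close to the 2693 of 3352 genes (80.3%) over the whole table, and Adamts1 and Adamtsl2 moved in opposite ways.

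The knockdown lines often differed in size. The difference between the 16T and the KP1 effect was computed for each gene from the deposited values (16T minus KP1, Wald test against the normal distribution, Benjamini-Hochberg adjustment over 15008 genes with a mean of at least 10). It was called for 22 of 44 members, 10 higher and 12 lower in 16T, where 29.4% of all genes were called. Tll1 fell further in 16T, with a difference of -0.63 ± 0.202 (adjusted p = 0.00876), as did Bmp1 at -0.59 ± 0.085 and Mmp15 at -0.74 ± 0.106. Mmp11 differed by 1.17 ± 0.224 and Adam10 by 0.35 ± 0.065, both higher in 16T. Adam19 (-1.55 ± 0.529), Timp3 (-1.19 ± 0.456), Adamts17 (-1.001 ± 0.241) and Timp2 (-0.43 ± 0.109) were higher in KP1. For Adamts5 the difference was 0.12 ± 0.287 and for Adamts18 it was -0.0018 ± 0.169, neither called. The errors of these differences are wide enough to leave room for moderate ones. When the reference was a t distribution with 6 degrees of freedom, 8 of the 22 were called, and the share of all genes went from 29.4% to 12.5%. Of the differences just named, those of Tll1, Adam19, Timp2 and Timp3 were not called under it.

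**Figure D3:**
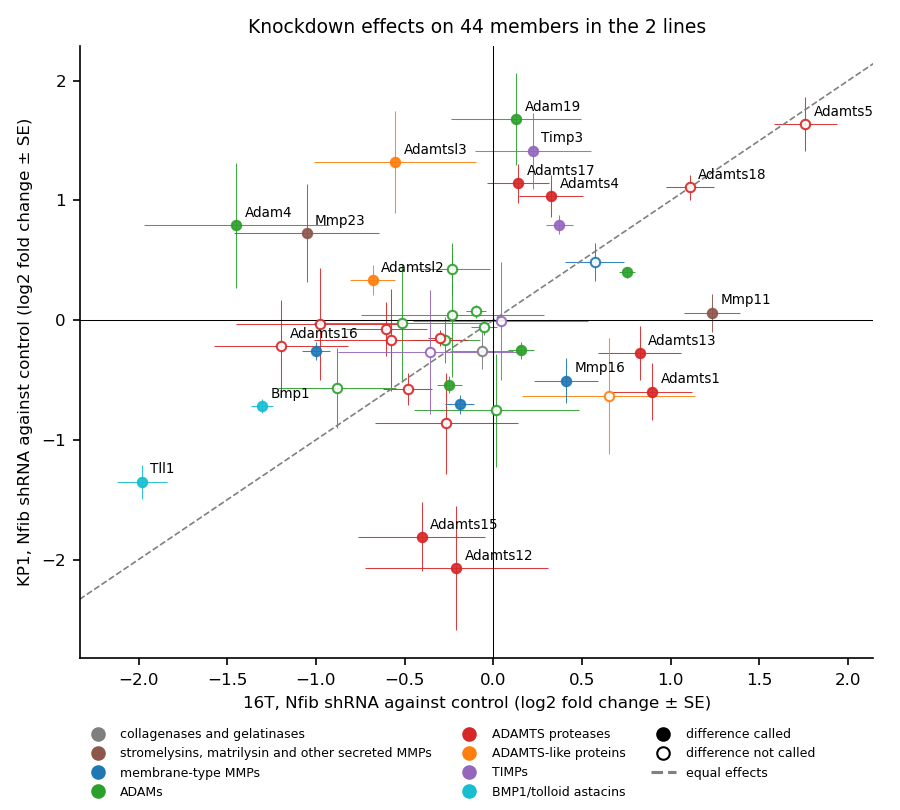
Log2 fold change with the Nfib shRNA in 16T (x) and KP1 (y), each with its SE, for the 44 members with a mean of at least 10; filled points have a called difference between the lines and the dashed line marks equal effects. Adamts5 and Adamts18 lie by the line, and Mmp11 and Adam19 lie far from it on opposite sides.

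To set the cDNA beside the knockdowns, the 16T and KP1 effects were averaged and the average was turned in sign, so that both point towards higher Nfib, and subtracted from the KP22 effect (Wald test as above). This difference was called for 18 of 44 members, 9 higher and 9 lower, where 36.7% of all genes were called. Tll1 had a turned knockdown effect of 1.67 ± 0.101, and its KP22 effect lay 2.50 ± 0.256 above it (adjusted p = 3.33e-21). The effects on Bmp1 had the same sign but were smaller with the cDNA, by -0.69 ± 0.073. For Adamts9 the turned knockdown effect was 0.53 ± 0.096, opposite to the cDNA, and the difference was -5.31 ± 0.225. Adamts13 (-2.27 ± 0.274), Adam33 (-2.11 ± 0.603), Adamts15 (-1.61 ± 0.418) and Mmp24 (-1.21 ± 0.116) were also lower in KP22 than the turned knockdown effect, and Mmp16 (1.46 ± 0.346) and Timp3 (1.10 ± 0.431) were higher. With the t reference, the differences of Adam33 (adjusted p = 0.0547) and Timp3 (adjusted p = 0.129) were not called. Adamts5 at 0.34 ± 0.244 and Mmp15 at -0.02 ± 0.090 had differences that were not called. The lines carry different vectors and start from different levels of Nfib, so that the direction of the manipulation cannot be told apart from the line.

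**Figure D4:**
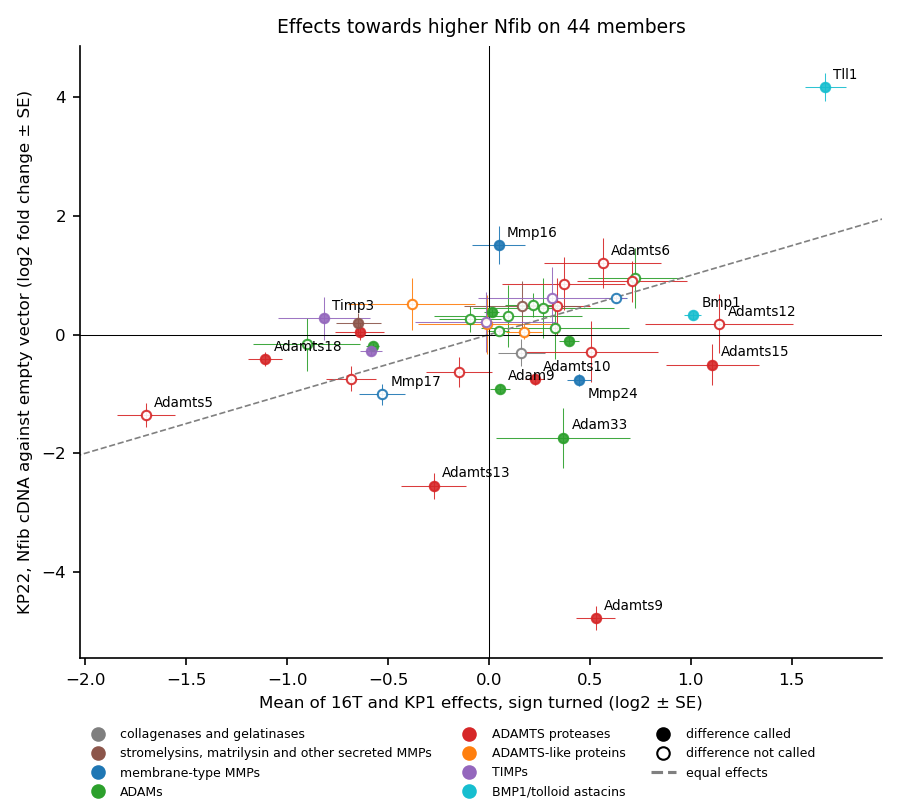
Mean of the 16T and KP1 knockdown effects with the sign turned (x) and the KP22 effect of Nfib cDNA (y), log2 with SE, for the 44 members with a mean of at least 10; filled points have a called difference and the dashed line marks equal effects. Tll1 stands at 1.67 and 4.17, and Adamts9 at 0.53 and -4.78.

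Among 24 genes that activate or restrain these proteases, 20 were tested in the knockdowns: 8 rose and 5 fell in 16T, 5 rose and 3 fell in KP1, and in KP22 3 of 21 rose and 10 fell. Called were thus 65% of those tested in 16T, 40% in KP1 and 61.9% in KP22, beside 45.3%, 37.2% and 38.4% of all genes. Most of those tested had a mean of at least 100, and 50.7%, 41.1% and 50.2% of all such genes were called. Furin, the convertase that removes the inhibitory propeptide of many members, rose by 0.86 ± 0.093 in 16T and 0.62 ± 0.094 in KP1 and fell by 1.19 ± 0.099 in KP22. The related convertase Pcsk5 rose by 1.95 ± 0.307 and 1.97 ± 0.306 in the knockdowns. Pcsk6 rose by 0.37 ± 0.129 in KP1 and by 1.03 ± 0.126 in KP22. Rhbdf2, which escorts Adam17 to the surface, fell by 0.79 ± 0.153 in 16T and 1.52 ± 0.152 in KP1 and rose by 0.78 ± 0.148 in KP22, and its relative Rhbdf1 fell by 1.22 ± 0.307 in KP1. The tetraspanin Tspan17, a partner of Adam10, rose by 1.06 ± 0.106 in 16T and fell by 0.54 ± 0.111 in KP22. Other listed tetraspanins are given after their values were seen. Tspan14 fell by 0.51 ± 0.062 in 16T and 0.45 ± 0.063 in KP1. Tspan15 fell by 0.27 ± 0.097 in 16T and 0.33 ± 0.088 in KP22. Tspan33 fell by 0.87 ± 0.294 and Tspan5 rose by 0.18 ± 0.067, both in 16T alone. Reck, a membrane-anchored inhibitor, fell by 1.15 ± 0.443 in KP22. Of the testican proteoglycans, Spock1 rose by 0.23 ± 0.097 in 16T and fell by 2.03 ± 0.144 in KP22. Spock3 rose by 1.02 ± 0.142 in KP1 and fell by 1.01 ± 0.087 in KP22. Papln, which resembles the ADAMTS-like proteins, fell by 1.25 ± 0.241 in 16T and by 0.64 ± 0.266 in KP22. Thsd4, a matrix relative of the same kind, rose by 0.67 ± 0.056 in 16T and 1.11 ± 0.059 in KP1.

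Among 25 known substrates of ADAMs and ADAMTS proteases, 7 rose and 5 fell of 21 tested in 16T, 6 rose and 6 fell of 21 in KP1, and 6 rose and 8 fell of 24 in KP22. These calls make up 57.1%, 57.1% and 58.3% of those tested, beside the same shares of all genes as above. Most of the tested substrates also had a mean of at least 100, where 50.7%, 41.1% and 50.2% of all genes were called. Versican, Vcan, cut by several ADAMTS enzymes, fell by 0.74 ± 0.099 in 16T and 2.43 ± 0.085 in KP1 and rose by 0.60 ± 0.171 in KP22. Neurocan, Ncan, fell by 0.31 ± 0.086 in 16T, rose by 0.23 ± 0.084 in KP1 and fell by 1.06 ± 0.11 in KP22. E-cadherin, Cdh1, which Adam10 sheds, rose by 4.83 ± 0.127 in 16T, 1.20 ± 0.068 in KP1 and 0.22 ± 0.059 in KP22. The membrane-bound chemokine Cx3cl1 rose in all 3, by 2.98 ± 0.147, 2.88 ± 0.140 and 1.08 ± 0.117. App, the amyloid precursor protein, rose by 1.09 ± 0.044 in 16T and 0.18 ± 0.044 in KP1 and fell by 0.89 ± 0.045 in KP22. Of the shed ligands of the epidermal growth factor receptor family, Hbegf rose by 0.82 ± 0.321 and 1.26 ± 0.333 in the knockdowns and fell by 0.80 ± 0.313 in KP22, Btc fell by 1.22 ± 0.233 in KP1, and Areg rose by 1.27 ± 0.520 in KP22. The adhesion molecule Chl1 fell in all 3, by 0.34 ± 0.125 in 16T, 1.05 ± 0.215 in KP1 and 0.60 ± 0.132 in KP22. These are transcript levels, and the activity of the proteases on these substrates was not measured.

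The labelled cell type was checked against its markers. Neuroendocrine markers were present, among them Syp with a mean of 5290, Insm1 with 15922 and Chga with 25383. Of 8 tested, 3 rose and 3 fell in 16T, 4 rose and 4 fell in KP1, and 2 rose and 5 fell in KP22. Of all genes, 45.3%, 37.2% and 38.4% were called. The values of these 8 in KP22 ran from -4.27 to 0.66. Chga stood there at -1.04 ± 0.037, Syp at -0.86 ± 0.051 and Insm1 at 0.47 ± 0.039. Of 7 leukocyte markers, 5 had a mean under 10, with Cd3e at 0, and the summed mean of all 7 was 174, nearly all of it Cd68. Fibroblast markers summed to 2602, of which Pdgfra gave 2220, with Col3a1 at 0. Endothelial markers summed to 3051, of which Vwf gave 2353 and Kdr 495, with Emcn at 0. Some fibroblast and endothelial markers moved with the comparisons as well. Kdr fell by 1.48 ± 0.180, 1.62 ± 0.214 and 1.76 ± 0.164 in 16T, KP1 and KP22. Vwf rose by 1.34 ± 0.158 in KP1 and fell by 0.75 ± 0.075 in KP22. Pdgfrb rose by 2.01 ± 0.376 in 16T and fell by 1.21 ± 0.378 in KP22. Pdgfra rose by 0.24 ± 0.077 in 16T and fell by 0.47 ± 0.069 in KP1. Its KP22 value of -0.22 ± 0.246 was not called. Of the fibroblast markers tested, 3 of 4 were called in 16T, 1 of 4 in KP1 and 1 of 6 in KP22. For endothelial markers the counts were 1 of 4, 2 of 4 and 2 of 5, beside the shares of all genes given above. The part of any of these markers in the members' changes was not tested. In bulk RNA, fewer cells expressing a gene and less RNA of it per cell cannot be told apart.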

How the data were processed

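RNA of 12 libraries was extracted with a Qiagen kit and prepared with an Illumina TruSeq kit, per the labels' protocols. The submitters' processing notes name mm10, TopHat, bedtools, DESeq and DESeq2, with versions not given in the sources used here. Per the file headers, the authors deposited for each feature 1 signal, the normalized count averaged over the libraries, and log2 fold changes with SEs and p-values, raw and adjusted, also for a test against a log2 change of 0.5. A deposited list gives merged RefSeq exon intervals; exons of merged intervals carry joined names, and 20 such features hold exons of 17 members (16 of 1 gene, 4 of different genes).

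The design had foreseen values per sample; as results only were used, the authors' adjusted p below 0.05 is the main test. No SE exceeded 0.521, and the lowest mean with an adjusted p was 15.7 in 16T and KP1 and 0.927 in KP22. In 16T the median SE was 0.068 where the mean reached 1000, 0.172 from 100 up to there, and 0.455 from 10 to 100. Differences between lines used the 15008 genes whose mean reached 10 (errors added as independent, Benjamini-Hochberg), with Python 3.11.15, pandas 2.3.3 and SciPy 1.17.1, and the code was tested on simulated data. The median gene stood at -0.05, -0.02 and 0.05.

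Named were members called with a change of at least 1 in any line. Added whatever their values were Timp1 to Timp4, Adam10, Adam17, Mmp2, Mmp9, Mmp14, Bmp1, Tll1 and Tll2. The 2 lists of other genes gave those called with such a change, and the other called tetraspanins were added after their values were seen. The members, lists and rules were chosen with earlier results of these data known. The planned search of protein sequences was not run. Alternatives were the authors' test against 0.5, other sets for adjustment, a mean of at least 100, recentring, a t reference and combined repeated-name features. One marker gene is not reported here.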

Additional observations from a re-analysis of the deposited data

Results flagged for a closer look

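The effect of the Nfib shRNA differed between 16T and KP1, by a Wald test of the difference itself, for 22 members. Each value is the log2 effect in 16T minus that in KP1. Higher in 16T were Adam10 (0.35), Adam15 (0.29), Adam17 (0.41), Adamts1 (1.49), Adamts12 (1.86), Adamts13 (1.10), Adamts15 (1.41), Mmp11 (1.17), Mmp16 (0.91) and Mmp24 (0.51). Lower in 16T were Adam4 (-2.24), Adam19 (-1.55), Adamts4 (-0.71), Adamts17 (-1.001), Adamtsl2 (-1.02), Adamtsl3 (-1.87), Bmp1 (-0.59), Mmp15 (-0.74), Mmp23 (-1.78), Timp2 (-0.43), Timp3 (-1.19) and Tll1 (-0.63).

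For Tll1, Bmp1, Mmp15, Adam15, Adam10 and Timp2 both lines were called in the same direction and differed in size; with a t reference the differences of Tll1, Adam15 and Timp2 were not called. Adamts1 and Adamtsl2 were called in opposite directions. The remaining members were called in at most 1 of the lines. Adamts12, a low gene with a mean of 10.7, had no adjusted p in either knockdown and stood at -0.21 ± 0.516 in 16T and -2.07 ± 0.520 in KP1.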

How the results depend on the processing

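The authors' own test against a log2 change of 0.5 asks for larger effects and left 4 members higher and 3 lower in 16T, 5 higher and 3 lower in KP1, and 2 higher and 4 lower in KP22. These are 7 of 47, 8 of 47 and 6 of 57 members with such a test, beside 5.25%, 4.58% and 7.66% of all genes. Of the 8 members with opposite directions under knockdown and cDNA, Tll1 and Adamts5 kept all 3 calls under this test. Adam10, Adamts18, Bmp1, Mmp15, Mmp17 and Timp2 lost theirs in KP22. With a t reference of 6 degrees of freedom, 7 members were lower in 16T, 5 were higher in KP22, and the difference between 16T and KP1 was called for 4 members higher and 4 lower. That reference ended the calls of Adam4, Adam12, Adamts16, Adamts20 and Mmp23 in 16T, of Adam17, Adamts1, Adamtsl2, Adamtsl3, Mmp15, Mmp16 and Mmp17 in KP1, and of Adam8, Adamts1, Adamts6 and Adamts16 in KP22, where Tll2 was too low to be included. It also ended the called differences between 16T and KP1 of Adam4, Adam15, Adam17, Adam19, Adamts4, Adamts12, Adamts13, Adamts15, Adamtsl3, Mmp16, Mmp23, Timp2, Timp3 and Tll1, and those between KP22 and the knockdowns of Adam33, Timp2 and Timp3. Among members with a mean of at least 100, the difference between the knockdown lines was called lower for 7, fewer because fewer were tested. The other counts stayed within 1.5 times of those reported under each alternative run. No called value changed sign. Signs turned for 3 values near 0 that were not called: the line difference of Adamts18 (0.029) and the KP1 effect of Timp4 (0.013) after recentring on the median gene, and the line difference of Timp1 (0.068) with repeated-name features combined. The calls of Tll1, Adamts5 and Adamts18 in both knockdowns, and those of Tll1, Adamts5, Adamts9 and Adamts13 in KP22, held under every alternative run.

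No paired analysis was possible because only results of comparisons were used, with no values per library; leaving out each replicate could not be run for the same reason. Low members had wide errors: at means of 10 to 100 the median SE in 16T was 0.455. The part of depth in this was not tested.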
